A study of Mus musculus with 6 samples.

Results

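Frame-breaking simple cassette exons are middle exons that a transcript either includes or skips as a whole and whose length is not divisible by 3. They were taken from local splicing variations (LSVs), in which a reference exon is listed with the junctions that leave or enter it. An LSV was kept when both diet tables held it with the same junctions, when it was marked as exon skipping without an alternative splice site or retained intron, and when it had 2 junctions and 3 exons. The rule used coordinates and flags and no measured splicing level. It gave 6215 LSVs of 4945 cassette exons in 3104 genes, out of 26910 LSVs in 5978 genes that both tables held. The 3586 LSVs of simple cassettes whose length is divisible by 3, from 2604 cassettes, are called frame-keeping and serve as the comparison.

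The study compared hepatocytes of male C57BL/6J mice after 12 weeks on a high-fat diet (HFD, 60% fat) with those after 12 weeks on a low-fat diet (LFD, 10% fat), with 3 mRNA libraries per diet. All mice had eaten chow with 13.5% fat until they were 8 weeks old. Every level below is pooled over the libraries of a diet, so a diet is 1 value with a posterior SD that covers reads and not animals, no p-value could be computed, and the depth per library is unknown. There were 27441 LSVs for HFD and 32268 for LFD, and the median posterior SD over the frame-breaking LSVs was 0.00438 on HFD and 0.00328 on LFD. The files hold no expression level with which to check the cell type. Of the marker genes listed for each cell type, 14 of 15 for hepatocytes had any LSV in both tables, against 2 of 10 for macrophages, 3 of 10 for endothelial cells, 2 of 10 for stellate cells, 1 of 8 for bile duct cells and 0 of 12 for immune cells. In bulk samples such as these, a different mix of cells and different splicing within cells cannot be told apart, nor can fewer cells of a type and less RNA per cell.

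The skipping PSI used throughout is the fraction of an LSV's reads on its longer junction, the one that joins the neighbouring exons and leaves the cassette out. When a coding exon whose length is not a multiple of the codon is skipped, the ribosome reads everything downstream in another frame and usually meets a stop codon early. A stop well upstream of the last exon junction marks an mRNA for nonsense-mediated decay (NMD), a surveillance pathway that degrades such transcripts. The reverse also occurs: a poison exon carries a stop codon, so the transcript that includes it is the one subject to decay, and many genes of splicing factors hold exons of this kind through which their own protein limits its synthesis. A PSI is measured on the RNA that is present, after any such decay.

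The sequences that follow show how skipping or including such an exon acts on the reading frame in genes chosen as examples. Some of these genes differed little between the diets, and some exons with large differences are not shown. All were read from GENCODE M21 transcripts (GRCm38, which is mm10) and are written 5′ to 3′ on the strand of the gene. Exons 3 of 10 of Hnrnph3 (chr10:63018760-63018898, minus strand) and 5 of 13 of Hnrnph1 (chr11:50381459-50381597, plus strand) encode corresponding parts of paralogous RNA-binding proteins of the hnRNP H family. Both are 139 nt long, both begin after the first base of a codon, and 126 of their 139 bases (90.6%) are equal in an alignment without gaps. Capitals mark the bases that differ.
Hnrnph3 exon: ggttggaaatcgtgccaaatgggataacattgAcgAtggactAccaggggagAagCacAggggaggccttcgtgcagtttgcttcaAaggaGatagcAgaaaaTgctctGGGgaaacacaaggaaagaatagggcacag
Hnrnph1 exon: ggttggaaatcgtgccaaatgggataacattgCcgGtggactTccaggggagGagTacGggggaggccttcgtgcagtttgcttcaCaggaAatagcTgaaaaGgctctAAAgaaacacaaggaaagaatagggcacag

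With the exon left out, the script joined the neighbouring exons and read on from the codon at the join to the first stop, shown in capitals. In Hnrnph3 the stop is codon 35 from the join and in Snrpa1, which encodes a protein of the U2 snRNP, it is codon 2. Clk4, a kinase that phosphorylates SR splicing factors, meets its stop at codon 7, and Abcb4, the transporter that moves phosphatidylcholine into bile, at codon 9. All of these stops lie over 50 nt upstream of the last exon junction. The skipped exons are at chr7:66070119-66070198 (plus strand, Snrpa1), chr11:51273078-51273168 (plus strand, Clk4) and chr5:8905975-8906032 (plus strand, Abcb4).
Hnrnph3 reading without exon 3: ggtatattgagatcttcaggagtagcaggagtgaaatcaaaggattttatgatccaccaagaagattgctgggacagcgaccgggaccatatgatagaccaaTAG
Snrpa1 reading without exon 6: tttTAA
Clk4 reading without exon 4: atgaaatcgtggacacttTAG
Abcb4 reading without exon 5: gatatgcatactactattcgggacTAG

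The opposite arrangement is shown by exons that GENCODE places inside NMD transcripts and not in coding ones, where the exon itself supplies the stop. The first bases of such exons up to the stop codon, in capitals, are given for Setd2, a histone H3 lysine methyltransferase (52 nt, chr9:110609998-110610049, plus strand), and for Srrm2, a large protein of the spliceosome rich in serine and arginine (95 nt, chr17:23821921-23822015, plus strand).
Setd2 exon start: tgtgttccccactctTGA
Srrm2 exon start: aggacagaacTAG

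Exons near the end of a gene are in another position, since the shifted reading can end in the last exon and give a protein with another C-terminus. This holds for exon 78 of 79 of Dmd (32 nt, chrX:85197504-85197535, plus strand), which encodes dystrophin, the link between actin and the cell membrane, and for exon 7 of 8 of the RNA-binding protein gene Rbpms (104 nt). In Map2k5, the kinase that activates Erk5, exon 3 of 22 (68 nt, chr9:63357993-63358060, minus strand) lies near the start, and its loss leads to a premature stop at codon 60 from the join. The Map2k5 and Dmd exons are shown whole, since they are among those with the largest differences between the diets.
Map2k5 exon: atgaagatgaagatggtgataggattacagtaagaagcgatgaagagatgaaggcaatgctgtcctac
Dmd exon: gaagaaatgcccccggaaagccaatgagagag

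The listed lengths fell into a smooth distribution with a spike at a single value. Of the 6215 LSVs, 886 (14.3%) had a middle exon of exactly 11 nt, whereas the next most frequent length, 83 nt, had 67. Of the 886 entries, 884 matched no GENCODE exon, and none of their cassettes had an LSV from both neighbouring exons. Their inclusion junction ended at the listed edge, so that edge is a used splice site, while the far edge rests on the listing alone. Whether these entries break frame is therefore not known, and results are given with and without them. The remaining 5329 LSVs, of 4062 cassettes in 2716 genes, had lengths from 2 to 5318 nt with a median of 127 nt, against a median of 111 nt for frame-keeping cassettes. A remainder of 1 after division by 3 was found in 2613 LSVs and a remainder of 2 in 2716, or 3602 with the 11 nt entries.

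**Figure D1:**
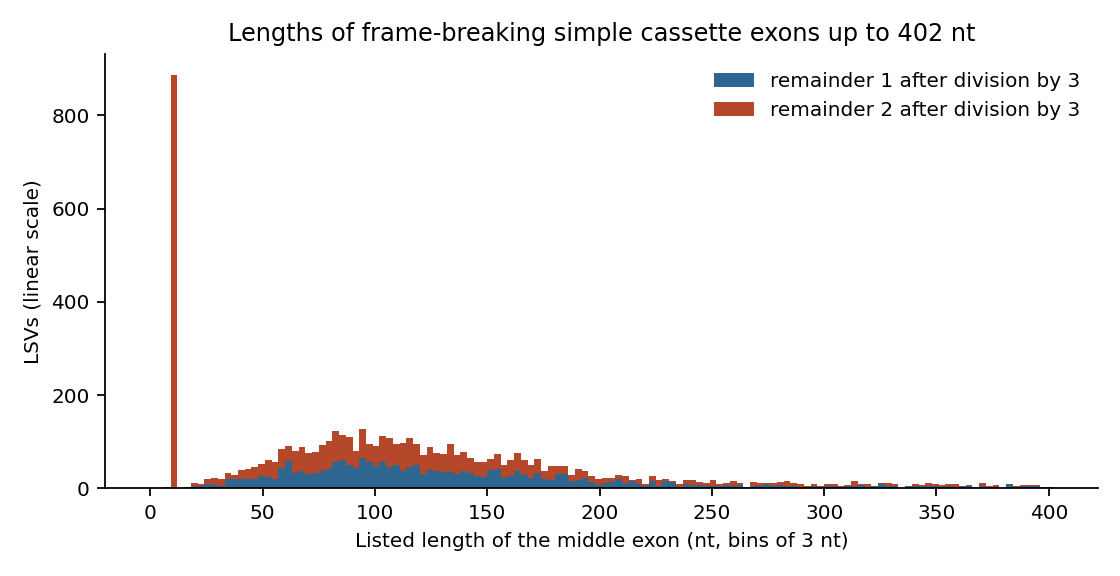
Listed length of the middle exon in frame-breaking simple cassettes (x axis, nt, in bins of 3 nt, up to 402 nt) against the number of LSVs (y axis), stacked by the remainder after division by 3. The bin that holds 11 nt stands far above all others in the plot, with 886 LSVs at that length.

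Of the 6215 LSVs, 4437 (71.4%) had an exon annotated with the same ends in GENCODE, from 3385 cassettes, and the skipping junction itself was annotated for 4701 (75.6%). The label that these exons break frame thus holds only for some of them. Exons that lay wholly within a coding sequence accounted for 2452 LSVs of 1786 cassettes. A further 152 LSVs had an exon with the start or stop codon, 101 lay in a 5′ UTR, 3 in a 3′ UTR, 274 in exons found inside NMD transcripts and not inside coding ones, 380 in first or last exons of coding transcripts, and 1075 in noncoding or other transcripts. Of the entries longer than 11 nt, 894 were not annotated. In 1233 cassettes (24.9%) both neighbouring exons gave an LSV with the same skipping junction, and there the length between the inclusion junctions could be measured. It equalled the listed length in 1050, differed in 183, and was divisible by 3 in 77.

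Most frame-breaking cassettes were spliced nearly always in the same way on both diets. The median skipping PSI was 0.0518 on HFD and 0.0528 on LFD, with quartiles of 0.0128 and 0.986 on HFD and of 0.0126 and 0.986 on LFD, so the low medians stand for a mixture of exons that are nearly always kept and exons that are nearly always left out. Without the 11 nt entries the medians were 0.0210 on HFD and 0.0263 on LFD, and over annotated exons 0.0151 and 0.0175. The 11 nt entries by themselves had medians of 0.987 on HFD and 0.987 on LFD. Frame-keeping cassettes had medians of 0.0311 on HFD and 0.0350 on LFD. Averaged over both diets, 3354 frame-breaking LSVs (54.0%) had a skipping PSI under 0.1, 2450 (39.4%) had one over 0.9, and 411 (6.61%) lay between these limits, a range called intermediate below. Of the frame-keeping LSVs, 456 (12.7%) were intermediate. Values stop at 0.0125 and 0.9875 in these tables, which are limits of the posterior grid and not measured fractions, and 962 frame-breaking LSVs sat at the lower limit on both diets and 631 at the upper.

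Levels of skipping varied widely with the place of the exon. Coding frame-breaking exons were kept almost always, with a skipping PSI under 0.1 in 92.7% of 2452 LSVs and over 0.9 in 1.71%. Coding frame-keeping exons had a skipping PSI under 0.1 in 74.7% of 2180 LSVs and over 0.9 in 11.9%. Exons that GENCODE holds inside NMD transcripts and not in coding ones were the mirror image: the median skipping PSI of the 274 frame-breaking LSVs was 0.985 on HFD and 0.986 on LFD, and 85.0% of them were above 0.9. Frame-keeping exons of this class were also mostly skipped, with medians of 0.981 on HFD and 0.981 on LFD and 78.1% of 128 LSVs above 0.9. In 217 of the 274 the annotated stop codon lies within the exon, in 42 downstream of it and in 15 upstream. Frame-breaking exons of 5′ UTRs, which carry no reading frame, were intermediate in 25.7% of 101 LSVs, against 30.2% of 53 LSVs for 5′ UTR exons whose length is divisible by 3.

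**Figure D2:**
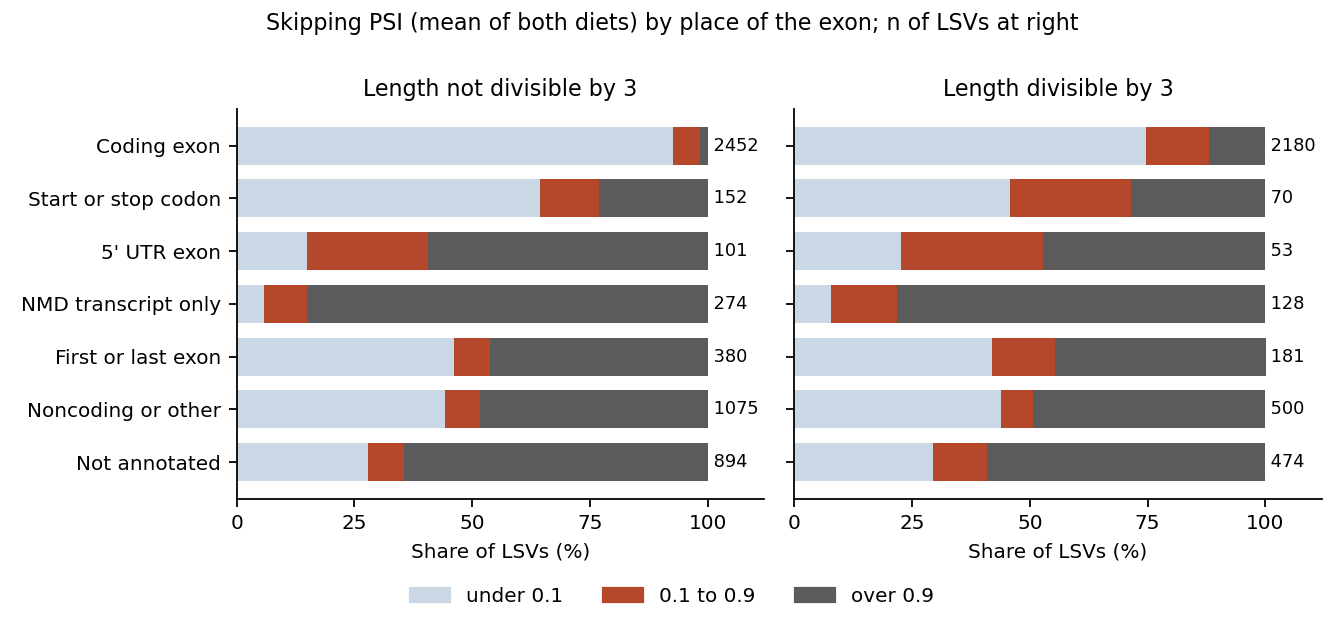
Share of LSVs (x axis, %) with a mean skipping PSI under 0.1, from 0.1 to 0.9 and over 0.9, by the place of the exon in GENCODE (y axis), for frame-breaking cassettes at left and frame-keeping cassettes at right, with the number of LSVs beside each bar. Coding exons show the clearest contrast, with 5.59% of frame-breaking and 13.4% of frame-keeping LSVs in the intermediate range. Exons labelled as NMD transcript only lie inside NMD transcripts and not in coding ones, and other transcript types were not checked.

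Within coding sequence, the position of the predicted stop went with the level of skipping. The stop was read by removing the exon from an annotated transcript and joining its neighbours there, not by following the counted skipping junction. A premature stop, over 50 nt upstream of the last junction, was predicted for 1955 LSVs of 1432 cassettes. Of these LSVs, 1113 (56.9%) had a skipping junction in GENCODE, 92 (4.71%) were intermediate and 13 (0.665%) were skipped above 0.9. In 467 LSVs of 333 cassettes the shifted reading ended at another stop near the end, and of these 41 (8.78%) were intermediate and 17 (3.64%) were above 0.9. Frame-keeping coding exons whose loss left the gene's own stop in place were intermediate in 270 of 2052 LSVs (13.2%). These are shares of exons in pooled tables and were not tested, since exons are not replicates of a condition and the LSVs of a cassette share reads.

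The contrast with frame-keeping coding exons was widest among short exons. Up to 50 nt, 4.86% of 144 frame-breaking coding LSVs were intermediate, against 25.2% of 274 frame-keeping ones. From 51 to 100 nt the shares were 6.10% of 853 and 15.3% of 791, and from 101 to 150 nt they were 5.52% of 852 and 9.53% of 724. Above 200 nt they were 6.49% of 154 frame-breaking and 10.2% of 118 frame-keeping LSVs. The frame-breaking share thus stayed within a narrow range over all lengths, while the frame-keeping share was lower in the longer classes up to 200 nt.

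**Figure D3:**
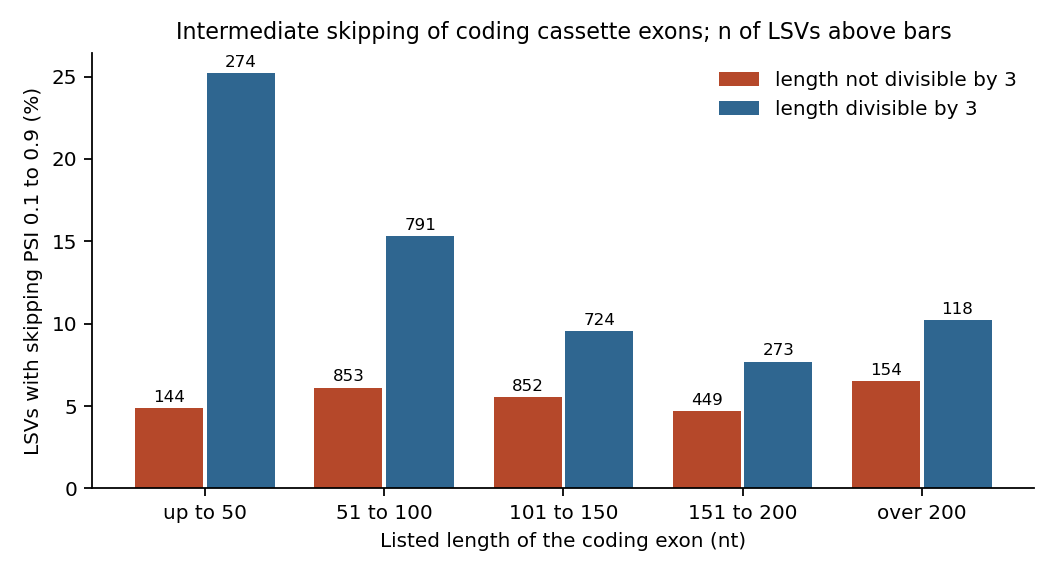
Share of coding cassette LSVs with a mean skipping PSI from 0.1 to 0.9 (y axis, %) by listed exon length (x axis, nt), with frame-breaking exons at left of each pair and frame-keeping exons at right and the number of LSVs above each bar. Frame-breaking exons lie between 4.68% and 6.49% in every length class, and frame-keeping exons between 7.69% and 25.2%.

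Several well-known regulated exons are among the intermediate coding members that end in another stop near the end, and they were chosen for mention after their values were seen. The 53-nt exon of Ceacam1, which encodes part of the cytoplasmic tail of a receptor involved in hepatic insulin clearance, had a skipping PSI of 0.847 ± 0.0235 on HFD and 0.857 ± 0.0190 on LFD (posterior SD, here and below). In Mbnl1, a splicing regulator, the 95-nt exon was skipped at 0.595 ± 0.0416 on HFD and 0.572 ± 0.0388 on LFD. Fxr1, which encodes an RNA-binding protein of the fragile X family, had 0.581 ± 0.0335 on HFD and 0.597 ± 0.0301 on LFD for its 92-nt exon. Each of these differed between the diets by less than its posterior SD. The 91-nt exon of H2afy, the macroH2A histone gene, stood at 0.587 ± 0.0311 on HFD and 0.658 ± 0.0287 on LFD. Its removal from an annotated transcript gives a premature stop, but the exon to which the counted skipping junction leads was not checked.

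Differences between the diets were small for nearly every member. The median absolute difference in skipping PSI, HFD minus LFD, was 0.00161, against 0.0017 for frame-keeping cassettes, and the median signed difference was 0 in both. An LSV was called different where the gap in skipping PSI reached 0.2 and also lay outside the 95% normal bound given by the posterior variances of both diets. This rule called 15 frame-breaking LSVs (0.241%) in 12 genes, 10 with more skipping on HFD and 5 with less. The same rule called 7 frame-keeping LSVs (0.195%), of which 4 (0.112%) had more skipping on HFD and 3 (0.0837%) had less. Applied to any junction, it called 0.343% of all LSVs with 2 entries and 0.624% of all LSVs. The share of frame-breaking cassettes called was therefore close to that of frame-keeping cassettes, and no larger than that of the tables at large. Without the 11 nt entries 11 calls were left, 7 with more skipping on HFD and 4 with less. At a threshold of 0.1, 102 LSVs (1.64%) in 92 genes were called, 55 with more skipping on HFD and 47 with less, against 68 frame-keeping LSVs (1.9%).

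Among the 411 intermediate frame-breaking LSVs, the median skipping PSI was 0.402 on HFD and 0.379 on LFD, the median absolute difference was 0.0463, and 69 (16.8%) were called at 0.1. Of the 456 intermediate frame-keeping LSVs, 58 (12.7%) were called at 0.1, with a median absolute difference of 0.0400.

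**Figure D4:**
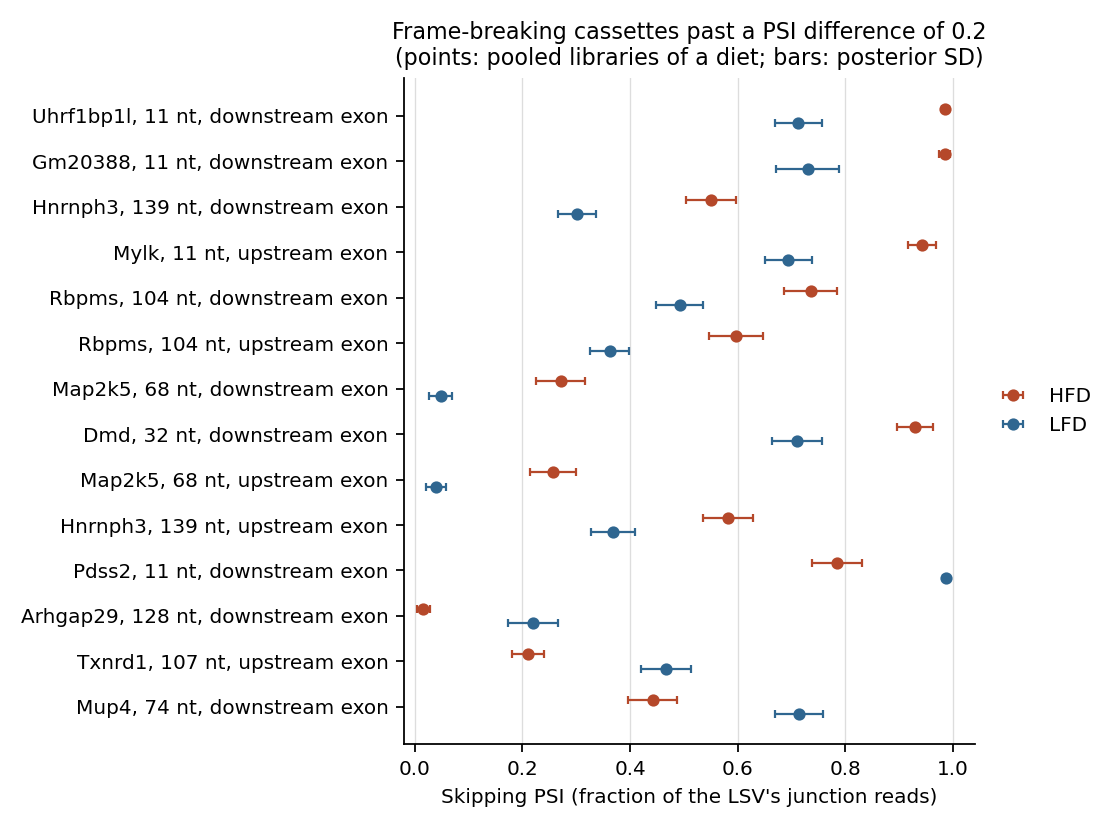
Skipping PSI (x axis) of frame-breaking LSVs called different at 0.2, leaving out 1 of the 15, with a row per LSV with the gene, listed length and reference exon, ordered from more skipping on HFD at the top to less at the bottom. Red points (pooled HFD libraries) lie to the right of blue points (pooled LFD libraries) in the upper 10 rows and to the left in the lower 4; bars are posterior SDs, which do not include differences between animals.

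Among annotated exons the largest increase in skipping was in Hnrnph3, whose exon 3 was called from both neighbouring exons. Its LSV from the downstream exon had a skipping PSI of 0.550 ± 0.0461 on HFD and 0.302 ± 0.0356 on LFD, a difference of 0.248. From the upstream exon the values were 0.582 ± 0.0465 on HFD and 0.368 ± 0.0410 on LFD, a difference of 0.213. On HFD skipping, which in the transcript read gives the premature stop shown above, thus took the larger share of the reads at this exon. The Hnrnph1 exon of nearly the same sequence is listed here with 679 nt, because GENCODE also holds a longer exon with the same start. It was skipped at 0.280 ± 0.0372 on HFD and 0.145 ± 0.0239 on LFD, a difference of 0.135, which passed 0.1 and not 0.2. The skipping PSI counts junction reads, which also cover a neighbouring exon. Given that 90.6% of the bases are equal, the parts of such reads that lie within these exons could match either gene. How the alignment treated them is not stated.

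Map2k5 and Rbpms were also called from both sides. Skipping of Map2k5 exon 3 was 0.271 ± 0.0449 on HFD and 0.0480 ± 0.0219 on LFD from the downstream exon, and 0.257 ± 0.0434 on HFD and 0.0392 ± 0.0187 on LFD from the upstream exon. Its skipping junction is not in GENCODE. Rbpms exon 7 was skipped at 0.735 ± 0.0499 on HFD and 0.492 ± 0.0432 on LFD from the downstream exon, and at 0.597 ± 0.0504 on HFD and 0.362 ± 0.0358 on LFD from the upstream exon. The levels from the 2 sides of Rbpms differed by more than either posterior SD, while the differences between diets, 0.243 and 0.235, were close. For Dmd exon 78, the downstream LSV had 0.929 ± 0.0331 on HFD and 0.711 ± 0.0467 on LFD, and the upstream LSV had 0.837 ± 0.0453 on HFD and 0.711 ± 0.0465 on LFD. The downstream LSV of Dmd was called, and the mean of both sides differed by 0.172, under the threshold.

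Less skipping on HFD, and so more inclusion, was called in fewer members. Exon 2 of 15 of Txnrd1, the cytosolic thioredoxin reductase, is a 107-nt 5′ UTR exon (chr10:82860524-82860630) and was skipped at 0.211 ± 0.0301 on HFD and 0.466 ± 0.0462 on LFD. The frame of Txnrd1 is not affected, since the exon lies before the start codon. An unannotated 128-nt exon of Arhgap29, a GTPase-activating protein, had 0.0162 ± 0.0114 on HFD and 0.220 ± 0.0468 on LFD. In Mup4, a major urinary protein gene, exon 3 of 7 had 0.442 ± 0.0453 on HFD and 0.714 ± 0.0443 on LFD, but its skipping junction spans 110300 bp and is not in GENCODE. Mup genes are nearly identical neighbours, so the Mup4 value is uncertain.

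The 4 called entries of 11 nt have no reliable length. Uhrf1bp1l had a skipping PSI of 0.986 ± 0.0071 on HFD and 0.712 ± 0.0437 on LFD. In Mylk, myosin light chain kinase, the values were 0.942 ± 0.0261 on HFD and 0.694 ± 0.0437 on LFD, and in Gm20388 they were 0.984 ± 0.0105 on HFD and 0.730 ± 0.0589 on LFD. Pdss2, a subunit of the enzyme that makes the side chain of coenzyme Q, had 0.784 ± 0.0472 on HFD and 0.987 ± 0.0053 on LFD. In each of these the entry was rarely used on 1 diet and took a larger share of the reads on the other. The members nearest under the threshold of 0.2 were a 658-nt coding exon of Safb2, a nuclear scaffold protein that binds RNA, with a difference of 0.195, and 11 nt entries of Rtn4ip1 with -0.193, Masp1 with 0.192 and Adck5 with 0.190. Safb2 and Masp1 were added for this purpose after their values were seen. Another exon of Uhrf1bp1l, the annotated 142-nt exon 12 of 21, was skipped at 0.0141 ± 0.0069 on HFD and 0.182 ± 0.0394 on LFD, and its loss would lead to a stop at codon 10 from the join.

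Genes of splicing factors and of the kinases that act on them held the highest shares of intermediate members among the lists of molecular function examined. In 15 LSVs of SR proteins and Tra2 genes, 6 (40.0%) were intermediate, and the median absolute difference between diets was 0.0396. The Clk, Srpk and Dyrk kinase list had 7 intermediate of 18 LSVs (38.9%), with a median absolute difference of 0.0380, the hnRNP list 10 of 48 (20.8%) and other splicing regulators 11 of 40 (27.5%). Over all frame-breaking members the share was 6.61% and the median absolute difference 0.00161. At 0.2, the SR, kinase and other regulator lists had 0 calls and the hnRNP list had 2, both in Hnrnph3. At 0.1, other splicing regulators had 4 calls, all with more skipping on HFD, and the hnRNP list had 4, of which 3 had more, where 1.64% of all frame-breaking members were called. These counts include both LSVs of a Rbm4 exon and of the Hnrnph3 exon, which share a skipping junction. These lists were drawn up with earlier results of the data known, so their counts are a description.

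**Figure D5:**
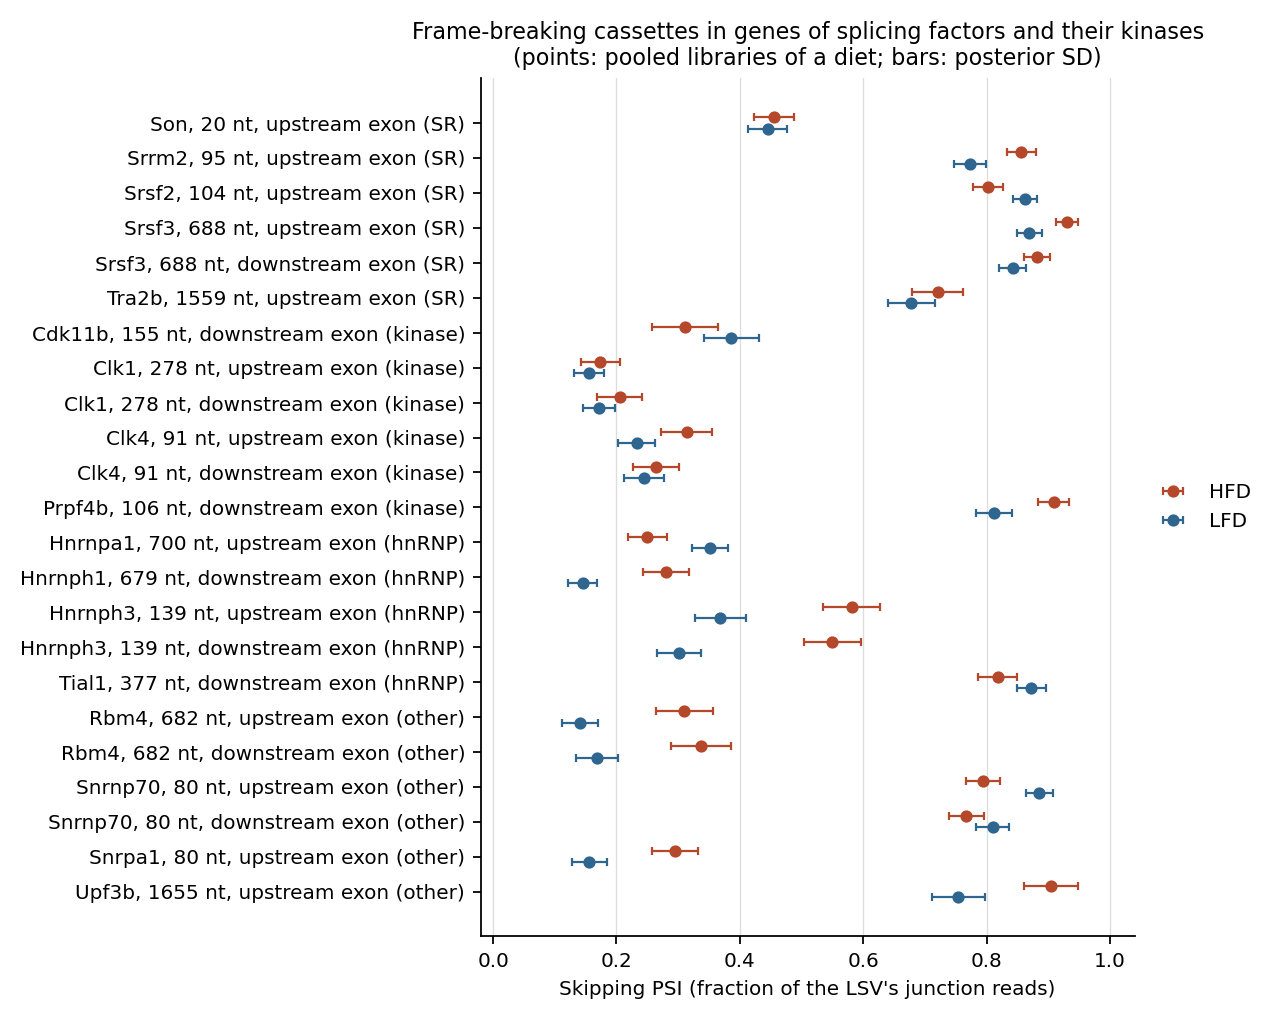
Skipping PSI (x axis) on HFD (red) and LFD (blue) of selected frame-breaking members in genes of SR proteins, of kinases that act on them, of hnRNP proteins and of other splicing regulators (y axis, with listed length and reference exon). Shown are up to 6 LSVs per list, those with the largest differences between diets among LSVs that were intermediate or differed by at least 0.1. Entries of 11 nt are left out, and most LSVs of the hnRNP and other regulator lists are not shown. Bars are posterior SDs over pooled reads; the rows of Hnrnph3 and Rbm4 show the widest gaps, all with more skipping on HFD.

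Among the other splicing regulators, Rbm4, an RNA-binding splicing regulator, had more skipping on HFD of its 682-nt exon with a start or stop codon, at 0.310 ± 0.0456 on HFD and 0.141 ± 0.0293 on LFD from the upstream exon and 0.337 ± 0.0490 on HFD and 0.168 ± 0.0338 on LFD from the downstream exon. The same exon is also listed under the overlapping gene Gm21992. Exon 6 of 9 of Snrpa1 was skipped at 0.295 ± 0.0374 on HFD and 0.156 ± 0.0284 on LFD. Upf3b encodes a factor of the NMD pathway itself, and its 1655-nt exon, of the class of noncoding or other transcripts, was skipped at 0.904 ± 0.0435 on HFD and 0.754 ± 0.0436 on LFD. The 80-nt 5′ UTR exon of Snrnp70, the gene of a U1 snRNP protein, went the other way, with 0.794 ± 0.0280 on HFD and 0.885 ± 0.0221 on LFD from the upstream exon and 0.767 ± 0.0286 on HFD and 0.810 ± 0.0266 on LFD from the downstream exon. Hnrnpa1 also had less skipping on HFD, of a 700-nt first or last exon, at 0.250 ± 0.0317 on HFD and 0.352 ± 0.0299 on LFD.

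The SR genes and the kinases had no call at 0.1, and 6 of 15 SR LSVs and 7 of 18 kinase LSVs were intermediate. The largest difference in the kinase list was in Prpf4b, a kinase of the spliceosome, whose 106-nt exon was skipped at 0.909 ± 0.0252 on HFD and 0.812 ± 0.0291 on LFD from the downstream exon and at 0.855 ± 0.0296 on HFD and 0.841 ± 0.0281 on LFD from the upstream exon. Clk4 exon 4 was skipped at 0.314 ± 0.0415 on HFD and 0.233 ± 0.0303 on LFD from the upstream exon, and at 0.265 ± 0.0374 on HFD and 0.245 ± 0.0318 on LFD from the downstream exon. Clk1, its paralogue, had 0.174 ± 0.0319 on HFD and 0.155 ± 0.0238 on LFD for a 278-nt exon from the upstream exon, and 0.205 ± 0.0367 on HFD and 0.1715 ± 0.0254 on LFD from the downstream exon. For the SR protein gene Srsf3, an exon listed with 688 nt was skipped at 0.930 ± 0.0172 on HFD and 0.869 ± 0.0204 on LFD from the upstream exon, and at 0.882 ± 0.0215 on HFD and 0.842 ± 0.0221 on LFD from the downstream exon. The inclusion junctions of the upstream LSV of Clk1 and of the downstream LSV of Srsf3 are not at the listed edge. Whether the forms counted there have the listed length and break frame is therefore not known. For Srsf2 a 104-nt 3′ UTR exon was skipped at 0.802 ± 0.0241 on HFD and 0.863 ± 0.0193 on LFD. The stop-carrying exon of Srrm2 was skipped at 0.857 ± 0.0241 on HFD and 0.773 ± 0.0258 on LFD from the upstream exon and at 0.925 ± 0.0183 on HFD and 0.919 ± 0.0174 on LFD from the downstream exon. The 20-nt exon of Son, which encodes a nuclear speckle protein, was skipped at 0.456 ± 0.0326 on HFD and 0.446 ± 0.0316 on LFD. In Son, Clk1 and the downstream LSV of Clk4 the diets differed by less than the larger posterior SD.

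Genes of hepatic metabolism were mostly spliced the same way on both diets. The lipid metabolism list had 10 intermediate of 105 LSVs (9.52%) with a median absolute difference of 0.00012, insulin and glucose 1 of 51, mitochondria 2 of 58, and xenobiotic metabolism with nuclear receptors 4 of 94. At 0.2, the xenobiotic list had 1 call, Txnrd1, and the lipid, insulin and mitochondria lists had 0. At 0.1 the lipid list had 2, an 11 nt entry of Acsl3 at 0.858 ± 0.0392 on HFD and 0.710 ± 0.0440 on LFD, and Apoc2. Apoc2, the activator of lipoprotein lipase, has a 76-nt first or last exon that was skipped at 0.891 ± 0.0249 on HFD and 0.760 ± 0.0307 on LFD. Nr1i3, the nuclear receptor CAR, had exon 3 of 9 skipped at 0.225 ± 0.0254 on HFD and 0.235 ± 0.0250 on LFD, levels that differ by less than the posterior SD. Removing this Nr1i3 exon from the annotated transcript gives a premature stop. For Nr1h4, the bile acid receptor FXR, a 151-nt first or last exon was skipped at 0.409 ± 0.0320 on HFD and 0.363 ± 0.0267 on LFD. In Abcb4, skipping of the exon whose lost reading is shown above was 0.0798 ± 0.0155 on HFD and 0.141 ± 0.0192 on LFD from the downstream exon, and 0.0706 ± 0.0144 on HFD and 0.124 ± 0.0173 on LFD from the upstream exon. This skipping junction of Abcb4 is not in GENCODE.

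The remaining lists had a few calls at 0.1 each, against 1.64% of all frame-breaking members. Stress and inflammation had 3 of 54 LSVs, of which 1 had more skipping on HFD and 2 had less, and chromatin and transcription had 4 of 36, of which 1 had more and 3 less. Exon 24 of 25 of Nfkb1, the gene of the NF-κB subunit p105 and p50, was skipped at 0.313 ± 0.0519 on HFD and 0.195 ± 0.0373 on LFD from the upstream exon and at 0.285 ± 0.0470 on HFD and 0.174 ± 0.0336 on LFD from the downstream exon, and both LSVs differed by over 0.1 but within the 95% bound, so neither was called. Of the 3 calls, 2 were the LSVs of the same 241-nt exon of Mapk9, a JNK kinase, with opposite signs: 0.105 from the downstream exon and -0.110 from the upstream exon. The 107-nt exon 14 of 15 of Kat7, a histone acetyltransferase, was skipped less on HFD, at 0.147 ± 0.0356 on HFD and 0.262 ± 0.0426 on LFD from the upstream exon. From the downstream exon it was skipped at 0.133 ± 0.0327 on HFD and 0.216 ± 0.0367 on LFD, a difference under 0.1. For the stop-carrying exon of Setd2, skipping was 0.882 ± 0.0339 on HFD and 0.987 ± 0.0030 on LFD from the downstream exon and 0.909 ± 0.0303 on HFD and 0.987 ± 0.0030 on LFD from the upstream exon. The stop-carrying exon of Setd2 was thus included more on HFD, while that of Srrm2 was included less on HFD from the upstream exon. Exons with a start or stop codon were called at 0.1 in 6 of 152 LSVs, all with more skipping on HFD, while over all members 55 calls had more and 47 less. In frame-keeping exons of the same class 1 of 70 LSVs was called, with less skipping on HFD. Of the 6, 3 are the Rbm4 exon as listed under Rbm4 and Gm21992.

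The LSVs from both sides of a cassette count the same skipping junction and different inclusion junctions. Over the 1233 cassettes with both, the median gap between their skipping PSI was 0.00042 on HFD and 0.00048 on LFD, and the gap exceeded 0.1 in 26 on HFD and 19 on LFD. A difference between diets of at least 0.1 in either LSV occurred in 39 cassettes. Both LSVs had the same sign in 29 of these and reached 0.1 in 11. At 0.2, 3 cassettes were called from both sides (Hnrnph3, Map2k5 and Rbpms) and Dmd from 1 side.

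The authors' deposited table of LSVs that differed between the diets lists 0.36% of the LSVs that both PSI tables hold, and 11 frame-breaking members by the same identifier, 9 of them with 2 entries there. In the authors' deposited table, Hnrnph3 has a skipping PSI of 0.550 on HFD and 0.304 on LFD, Txnrd1 has 0.219 on HFD and 0.473 on LFD, and Map2k5 has 0.266 on HFD and 0.046 on LFD. These lie within 0.01 of the values from the PSI tables. For Mup4 the authors' deposited table gives 0.549 on HFD and 0.816 on LFD, and the PSI tables give 0.442 on HFD and 0.714 on LFD. For Gm13775 the authors' deposited table gives 0.246 on HFD and 0.006 on LFD, and the PSI tables give 0.273 on HFD and 0.283 on LFD. Rbpms, Arhgap29, Dmd and Pdss2, which were called from the PSI tables, are not among the 11 members matched to the authors' deposited table.

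A second program, JUM, reports the change in exon inclusion, so its sign is opposite to that of skipping. The title line of its table names NC livers, a short form for normal chow in the labels, whereas the heading over the changes subtracts LFD from HFD. Groups and directions of all JUM values rest on that heading. Of 77 cassette events in the authors' deposited table from JUM, 22 had the skipping junction of a frame-breaking member, 16 with the same exon ends and 6 with others. An adjusted p-value under 0.05 is given for 17.7% of the 470 listed events and for 7.79% of the cassette events in the authors' deposited table. Of the 22 events, 2 did. For Txnrd1 the authors' deposited table gives an inclusion change of 0.0673 (adjusted p = 0.0289, JUM), which is the direction seen in the PSI tables at a smaller size. Cyp4a12a, a fatty acid hydroxylase of a multi-copy family whose counts are uncertain, is given an inclusion change of 0.0241 (adjusted p = 0.0255, JUM) by the authors' deposited table. In the PSI tables its exon 2 of 12 was skipped at 0.0126 ± 0.0014 on HFD and 0.0981 ± 0.0158 on LFD from the upstream exon, and at the lower limit of 0.0125 on HFD and 0.0394 ± 0.0069 on LFD from the downstream exon. This skipping junction of Cyp4a12a is not in GENCODE.

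The largest inclusion changes among the matched events in the authors' deposited table from JUM did not pass its adjusted p. In the authors' deposited table they were -0.272 for Rbpms (adjusted p = 0.0826) and -0.1996 for Zfml (adjusted p = 0.312). The exon of Zfml as JUM gives it is 102 nt long and keeps the frame, against 104 nt as listed here. The authors' deposited table gives Hnrnph3 -0.143 (adjusted p = 0.220), Snrpa1 -0.0926 (adjusted p = 0.307) and Hnrnph1 -0.0877 (adjusted p = 0.203), the last for the 139-nt form of the exon. Each of these 3 is a lower inclusion on HFD, as in the PSI tables. Nr1i2, the nuclear receptor PXR, is given an inclusion change of 0.0512 (adjusted p = 0.179) in the authors' deposited table. Its 143-nt exon 6 of 9 was skipped at 0.0172 ± 0.0102 on HFD and 0.115 ± 0.0191 on LFD in the PSI tables, by a junction that is not in GENCODE.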

How the data were processed

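Libraries were grouped by diet from their titles. Libraries were stranded and paired-end, per the labels' protocols, and the submitters' processing notes name FastQC, STAR and the mm10 build. Splicing was quantified by the authors with MAJIQ, shown through voila, and with JUM, per the file headers. The authors deposited, per diet, a posterior mean PSI (a fraction) and variance per junction, pooled over 3 libraries, plus a table of PSI differences and a JUM table of p-values, adjusted p-values (q-values) and inclusion changes. Read minimums, program versions and depth are not stated.

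LSVs were joined by identifier and junctions with pandas 2.3.3 and numpy 2.4.6 in Python 3.11.15. Coordinates were placed in GENCODE M21 (GRCm38). For each exon a coding transcript was read with the exon removed and its own neighbouring exons joined. Transcripts with the exon wholly in coding sequence were preferred, then those with complete ends, then the longest coding sequence. A stop over 50 nt before the last junction was called premature. Calls needed a skipping PSI difference of 0.2 beyond the 95% normal bound of the combined posterior SD. The rule was also run on simulated reads without differences between animals, so that run does not give its error rate in these data. Alternative settings are given with the closing observations.

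Named were all called members, members in the authors' tables, the 8 largest differences per direction with a posterior SD under 0.05, up to 6 members of each gene list, the 8 nearest a PSI of 0.5, the shortest and longest intermediate members and the 8 most skipped. Genes named by this rule are not all described, and 1 called member is not reported here. The members and lists were chosen with earlier results of these data known.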

Additional observations from a re-analysis of the deposited data

How the results depend on the processing

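No paired analysis was possible because the deposited values are pooled per diet and no value per library was used. For the same reason no library could be left out. The 15 calls became 102 at a PSI difference of 0.1 and 0 at 0.3, and 7 both among cassettes with LSVs from both sides and among those whose length between inclusion junctions equals the listed one, all 7 with more skipping on HFD. Every other alternative gave 10 to 15 calls. The median skipping PSI on HFD and on LFD was 0.0719 and 0.0735 with 1 mean per cassette, 0.0608 and 0.0628 where the exon edge equals the inclusion junction, 0.0210 and 0.0263 without 11 nt entries, and 0.0151 and 0.0175 over annotated exons, the last 2 chosen after seeing the data. Matches to JUM went from 2 to 0 at an adjusted p of 0.01 and to 22 for any listed event. Matches to the authors' deposited table of differences went from 11 to 18 by skipping junction alone. The cause of these shifts was not tested. Dmd fell under the threshold, at 0.172, with the mean of its LSVs.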

Other observations

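In a few cassettes the LSVs from the 2 sides gave different levels. The 205-nt exon of Sf1, a protein that binds the branch point, was skipped at 0.514 ± 0.0387 on HFD and 0.541 ± 0.0363 on LFD from the upstream exon and at 0.987 ± 0.0042 on HFD and 0.987 ± 0.0023 on LFD from the downstream exon. The 227-nt exon of Dnm2, a dynamin of membrane scission, had 0.582 ± 0.0377 on HFD and 0.597 ± 0.0356 on LFD from the downstream exon and 0.974 ± 0.0158 on HFD and 0.987 ± 0.0022 on LFD from the upstream exon, whose inclusion junction is not at the listed edge. Mapk9, a JNK kinase, differed in sign between the sides for its 241-nt exon, with 0.965 ± 0.0207 on HFD and 0.860 ± 0.0278 on LFD from the downstream exon and 0.834 ± 0.0374 on HFD and 0.944 ± 0.0196 on LFD from the upstream exon.

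Some members with large listed exons were also intermediate. Kif1b, a kinesin, had a 4750-nt first or last exon skipped at 0.819 ± 0.0313 on HFD and 0.944 ± 0.0162 on LFD from the upstream exon. From the downstream exon it was above the intermediate range, at 0.951 ± 0.0188 on HFD and 0.9875 ± 0.0004 on LFD. The inclusion junction of that downstream LSV is not at the listed edge. In Slc44a1, a choline transporter, a 2422-nt first or last exon was skipped at 0.132 ± 0.0372 on HFD and 0.265 ± 0.0360 on LFD. Among shorter exons, Numb, a regulator of endocytosis and Notch signalling, had an 85-nt 5′ UTR exon skipped at 0.390 ± 0.0480 on HFD and 0.515 ± 0.0424 on LFD. For Numb the authors' deposited table from JUM gives an inclusion change of 0.116 with an adjusted p of 0.335.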
